A study of Mus musculus with 37 samples.

Results

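The apolipoprotein and lipid-carrier genes Apoe, Clu, Abca1, Abcg1, Lpl, Apod, Fabp7, Fabp5, Nr1h2 and Nr1h3 were followed through cultures of mouse primary astrocytes. They were chosen by name, and every probe set annotated to them was taken. Of the 10 genes, 9 had a probe set, 18 in all among the 45101 on the array. No probe set was named here for Nr1h2. Of the 18 probe sets, 16 were tested; those tested exceeded the median of the whole table, 3.189 on the log2 scale, on at least 4 arrays. That median is called the background level below. The remaining probe sets, 1455221_at of Abcg1 and 1444564_at of Apod, exceeded it on 0 of 37 arrays.

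Newborn mice of the strain 129S4/SvJae (129) or C57BL/6J (B6) gave the cells, and cultures of each sex were kept apart. All were carried in medium with serum and electroporated with the plasmid pcDNA3.1-hygro, either holding CDCA7L or empty, and the transfection is described as stable, so the control cells had been transfected and plated as well. Cdca7l cultures numbered 4 for 129 females, 5 for 129 males, 4 for B6 females and 5 for B6 males, and vector cultures 4, 5, 5 and 5 in the same order. The design text calls the cultures independent isolates, while the titles give each a clone label such as 4(1), and 15 labels occur on a Cdca7l and a vector array of the same strain and sex. The age, housing and number of the donor mice behind a label are not given in the sources used here. P-values therefore measure the spread between these cultures, and the main fit counted arrays with the same label as separate cultures.

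Astrocytes are a main source of apolipoprotein E (Apoe) and clusterin (Clu, also called apolipoprotein J) in the brain. The membrane transporter Abca1 passes cholesterol and phospholipid to lipid-poor apolipoproteins, and Abcg1 adds cholesterol to particles already formed. Both transporters, Apoe and lipoprotein lipase (Lpl) are classic targets of the liver X receptors, nuclear receptors for oxysterols encoded by Nr1h3 and Nr1h2. Apolipoprotein D (Apod) is a lipocalin that is not related to Apoe, and Fabp7 and Fabp5 carry fatty acids inside cells, Fabp7 being long used as a marker of radial glia and astrocytes.

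The astrocyte markers Gfap, Aqp4, Slc1a3, Aldh1l1, Gja1, Glul and Sox9 were above background on all 37 arrays, while S100b was above it on 13 and Gjb6 on 3. Genes of other cell types were present in part. Of 16 microglia and macrophage markers, Fcer1g and Cd68 were above background on 37 arrays, Cd14 on 35, Laptm5 on 22 (up to 12.08) and C1qb on 18 (up to 12.04), while Cx3cr1, Itgam and P2ry12 were above it on 0. Of 9 endothelial markers, Flt1 was above it on 8 arrays (up to 9.57) and Kdr on 4, while Pecam1, Cdh5, Cldn5 and Vwf were above it on 0. Of 11 oligodendrocyte lineage markers with a probe set, Olig1, Olig2 and Cnp were above background on 37 arrays, Pdgfra on 36 and Mbp on 4. Mog was above it on 2, Sox10, Cspg4 and Ugt8a on 1 each, and Mag and Mobp on 0. Cdca7l itself, the gene introduced, averaged between 12.36 and 13.07 in the 4 Cdca7l groups and between 7.62 and 8.53 in the 4 vector groups. A pair of arrays stood apart. The upper quartile of all log2 values was 8.36 on the 129 female vector array 1(3) and 9.03 to 9.51 on the other 36, and the B6 female vector array 5.1(1) gave Xist at 2.40, within the male pattern, against 10.71 to 12.20 on the other 16 female arrays. Member calls that change without both are given beside the results.

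**Figure D1:**
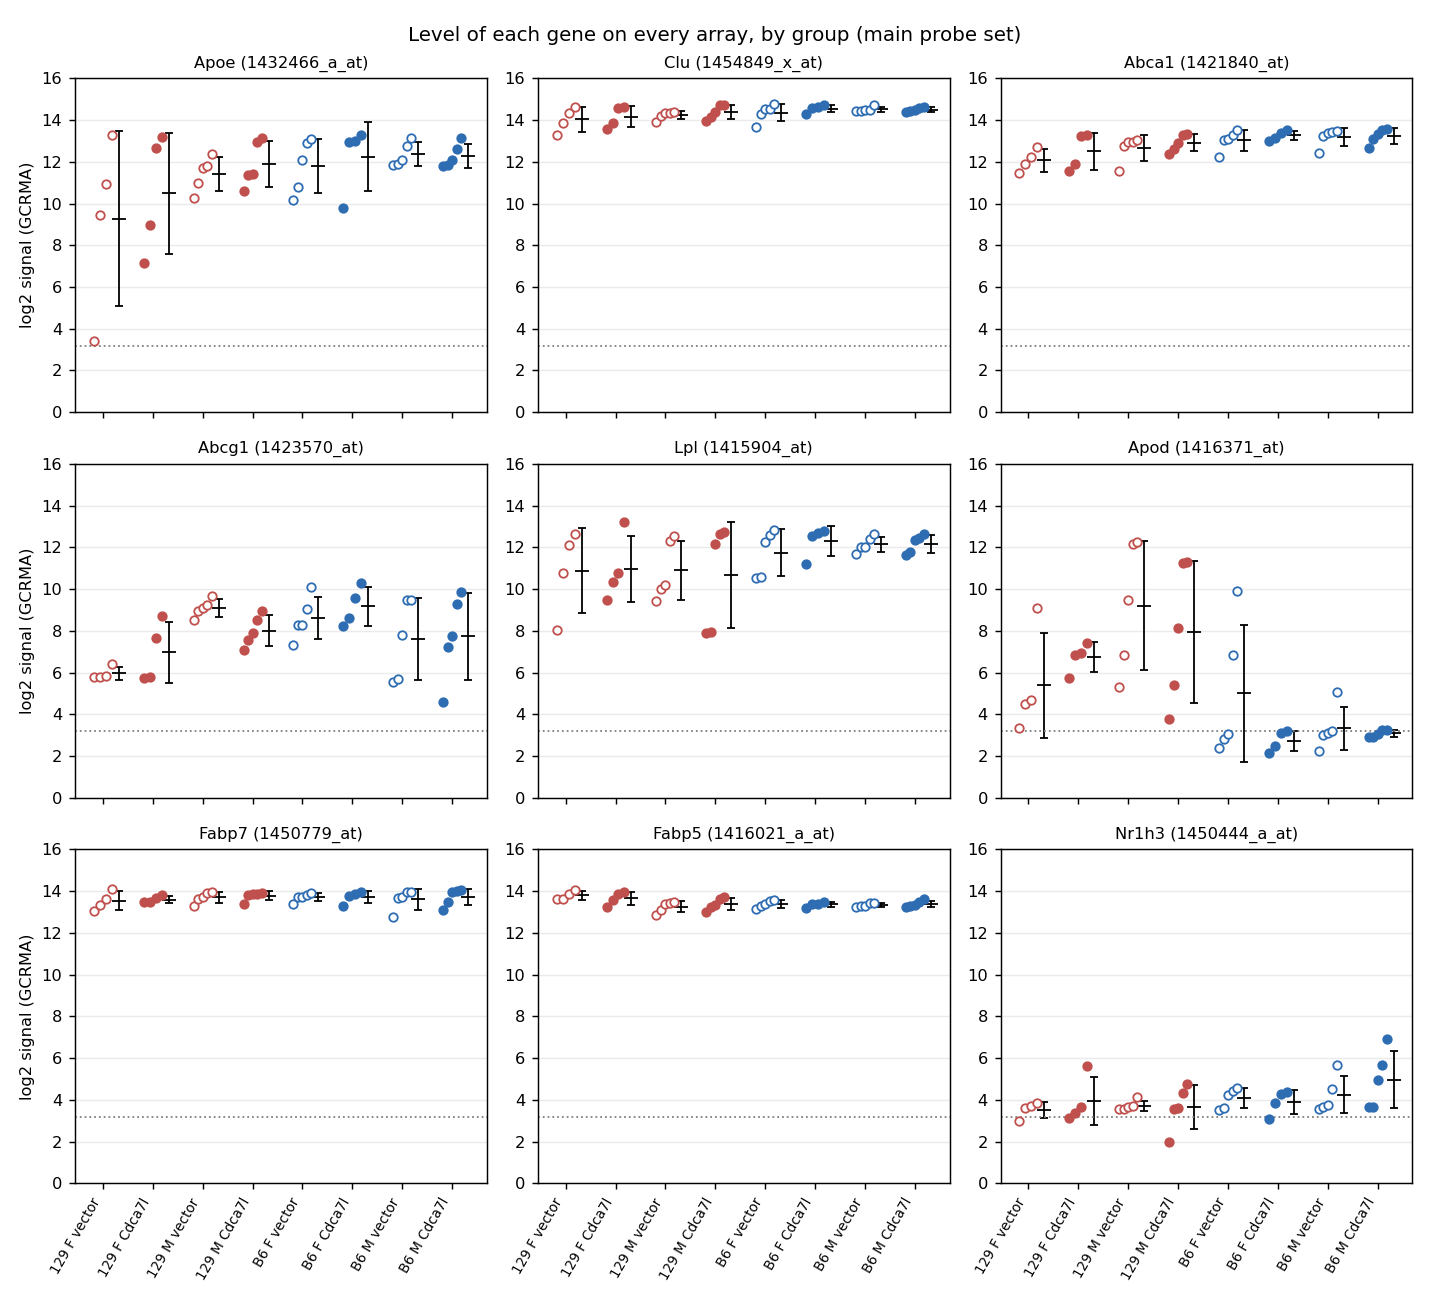
Level of 9 genes on every array, as deposited log2 signal (vertical axis), for the 8 groups of strain, sex and plasmid (horizontal axis; F female, M male). Red points are 129 arrays and blue points B6 arrays, filled for Cdca7l and open for vector; the black bar beside each group is its mean with 1 SD, and the dotted line is the background level of 3.189. Apod spans 2.14 to 12.25 and Apoe 3.42 to 13.29, while Clu, Fabp7 and Fabp5 vary by less than 1.5 log2 units over all arrays.

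The strains differed most clearly in Apod and Abca1. Apod was higher in 129 than in B6 cultures by 3.80 ± 0.737 log2 units (SE; group means 7.33 and 3.53), a size that rests on B6 signals mostly not above background, and Abca1 was lower in 129 on all 3 of its probe sets. Of the 16 probe sets tested, 4 passed in limma, 1 higher and 3 lower in 129; passing means a p below 0.05 after Benjamini-Hochberg adjustment over all probe sets tested. Strain differences were common across the array: 25.2% of all 25579 probe sets tested passed, 10.6% higher and 14.6% lower in 129, near the share of 25% among these 16. That share depended on single arrays: 8 of the 16 passed without both arrays that stood apart, and 4 to 10 in the fits that left out 1 array, with 5308 to 7724 of all probe sets passing in the latter. The array-wide share was lower with a random block on clone label. There 4249 of all probe sets passed, against 6456 without the block, and the same 4 of the 16. Between neighbouring groups in the order of group means, arrays did not overlap in 0 of 7 steps for any of the 16 probe sets, where 0.265% of such steps over all probe sets tested were free of overlap.

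Apod (probe set 1416371_at) was above background on all 18 of the 129 arrays and on 7 of the 19 B6 arrays. In 129 males it read 3.75, 5.39, 8.14, 11.26 and 11.28 with Cdca7l and 5.31, 6.83, 9.49, 12.14 and 12.25 with vector. In 129 females it read 5.75, 6.85, 6.95 and 7.44 with Cdca7l and 3.34, 4.49, 4.69 and 9.08 with vector. The highest values of the gene thus lay in 129 males, on both arrays labelled 3(1) and both labelled 5(1).

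Among B6 arrays, Apod read 2.14, 2.50, 3.08 and 3.19 in Cdca7l females and 2.92, 2.93, 3.06, 3.23 and 3.26 in Cdca7l males. The vector arrays read 2.38, 2.83, 3.06, 6.82 and 9.91 in B6 females and 2.22, 3.02, 3.11, 3.20 and 5.06 in B6 males. Of the 19 B6 arrays, 16 thus lay at 3.26 or below, close to the background level, and the exceptions were the female vector arrays 2.1(1) and 5.1(1) and the male vector array 3(5). Array 5.1(1), with the value of 9.91, is the array with the male pattern named above.

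The strain difference of Apod passed with an adjusted p of 0.000359 (limma; 95% interval 2.29 to 5.30). It was 3.52 log2 units with values below background raised to that level, and 4.18 without both arrays that stood apart. The strains did not overlap in 3 of the 4 matched groups, namely female Cdca7l, male Cdca7l and male vector, where 7.35%, 5.2% and 7.17% of all probe sets tested did not overlap. Taken over all 129 and all B6 arrays, 0.547% of probe sets did not overlap and none of the 16 was among them. The strain difference was larger in males by 3.17 ± 1.47 log2 units (SE), a difference that did not pass (adjusted p = 0.306).

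Markers of fibroblasts and meningeal cells moved with Apod. Of the 10 genes of that list, 9 were tested and 5 passed as higher in 129, with a median difference of 2.45 log2 units against −0.02 over all named genes; Col3a1 was higher by 5.43 ± 0.881 (SE; adjusted p = 3.62e-05), Col1a2 by 2.75 ± 0.452 and Col1a1 by 3.02 ± 0.616. The list's score, the mean of its genes' log2 values after each was centred over the 37 arrays, ran from −0.87 to 4.09 in 129 and from −1.86 to −0.17 in B6. The 4 highest scores, 4.03 to 4.09, belonged to the same 129 male arrays 3(1) and 5(1) that had the highest Apod. The endothelial list moved with Apod too, with 1 of 2 genes tested called higher in 129 (Flt1, 2.07 ± 0.601), and its 4 highest scores, 2.75 to 4.92, were on those same 4 arrays. Lum was above background on 4 arrays, Dcn on 8, Slc22a6 on 1, Postn on 9 and Col3a1 on 15. Col1a1, Col1a2, Fbln1, Pdgfrb and Thy1 were above it on all 37. With Col3a1 not above background on most arrays, its difference has no reliable size. Over all named genes, 10.4% were called higher in 129. The list of dividing cells was higher in 129 as well, with 3 of 13 tested genes called (median 0.88). In RNA from whole cultures, more cells of a type and more RNA per cell cannot be told apart. The part of any of these lists in the strain difference of Apod was not tested.

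Abca1 (1421840_at) lay near the top of the signal range in every culture, but lower in 129. The 129 arrays read 11.57, 11.88, 13.26 and 13.28 in Cdca7l females, 11.46, 11.88, 12.23 and 12.72 in vector females, 12.40, 12.61, 12.90, 13.29 and 13.33 in Cdca7l males and 11.58, 12.74, 12.95, 12.97 and 13.06 in vector males. The B6 arrays read 13.01, 13.15, 13.40 and 13.51 in Cdca7l females, 12.22, 13.06, 13.12, 13.31 and 13.51 in vector females, 12.66, 13.09, 13.32, 13.52 and 13.57 in Cdca7l males and 12.41, 13.25, 13.37, 13.42 and 13.49 in vector males. The strains overlapped in all 4 matched groups, and the lowest 5 values of all were from 129 arrays.

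The difference was −0.65 ± 0.172 log2 units (129 minus B6, SE; group means 12.53 and 13.18; limma adjusted p = 0.00666). The other Abca1 probe sets gave larger differences in the same direction, −1.52 ± 0.31 on 1421839_at (adjusted p = 0.000624) and −1.20 ± 0.301 on 1450392_at (adjusted p = 0.00429). On 1450392_at, 11 of 18 129 arrays and 18 of 19 B6 arrays were above background. Among vector females, where 7.01% of all probe sets tested did not overlap, the 129 and B6 arrays of both 1421839_at and 1450392_at were apart; among vector males those of 1450392_at were. All 3 differences of Abca1 and that of Apod passed in each of the 6 other settings tried and in each of the 37 fits that left out a single array.

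The astrocyte list moved in the direction of Abca1: of 12 genes tested, 0 were called higher and 5 lower in 129, with a median of −0.76; Sox9, a transcription factor of glia, was at −0.77 ± 0.202 (SE), the water channel Aqp4 at −0.93 ± 0.227 and the glutamate transporter Slc1a3 at −0.96 ± 0.295. The score of the list ran from −2.73 to 1.22 in 129 and from −0.97 to 1.37 in B6. Other lists had lower calls in 129 as well, 3 of 7 ependymal and choroid plexus genes tested (median −0.99, with 1 higher), 2 of 5 of the oligodendrocyte lineage (median −0.81), 3 of 6 of neurons (median −0.37, with 1 higher) and 2 of 11 of progenitors (median −0.17). Over all named genes, 16.5% were called lower and 10.4% higher in 129, so the progenitor list lay near that share. The list of dividing cells went the other way, with 3 of 13 tested genes called higher (median 0.88). The part of these lists in the difference of Abca1 was not tested.

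**Figure D2:**
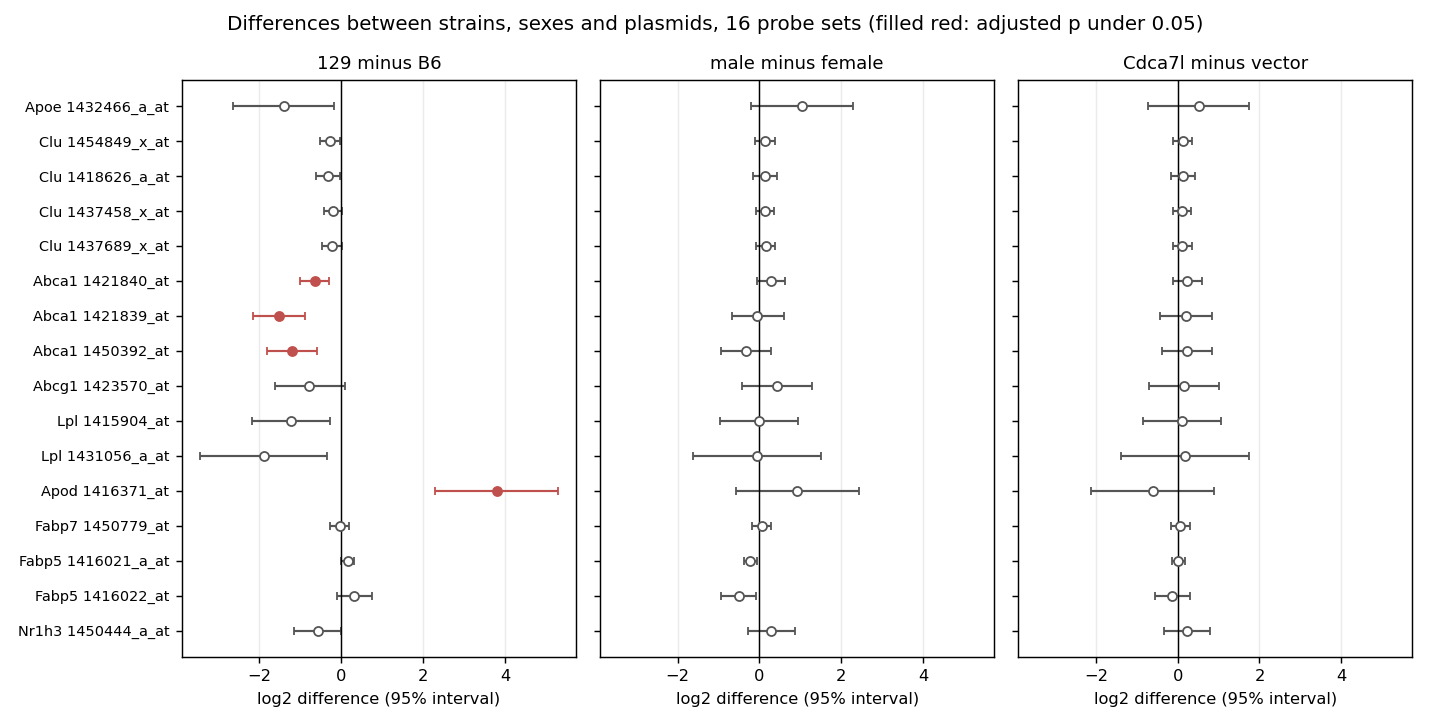
Differences in log2 signal (horizontal axes) for the 16 probe sets tested, between strains, sexes and plasmids, each averaged over the other factors; points are limma estimates and bars 95% intervals. Filled red points passed at an adjusted p under 0.05: Apod at 3.80 and the 3 probe sets of Abca1 at −0.65, −1.52 and −1.20 between strains, and none between sexes or plasmids.

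The sequence before the start of Abca1 and of Apod is shown because these are the genes that differed between strains, in opposite directions. The sequences are from RefSeq (GRCm38.p6), the reference genome of C57BL/6J, read 5′ to 3′ on the gene's strand. For Abca1 the stretch covers chr4:53159989-53160145, minus strand, from 250 to 94 bases before the listed start, since the bases nearer to it overlap the annotated gene. For Apod it covers chr16:31314809-31315058, minus strand, the 250 bases before the start. Capitals mark a GC box (GGGCGG) and an E-box (CACGTG).
Abca1: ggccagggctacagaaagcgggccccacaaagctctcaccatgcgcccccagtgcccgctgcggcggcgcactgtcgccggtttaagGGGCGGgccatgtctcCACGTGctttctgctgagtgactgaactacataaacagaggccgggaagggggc
Apod: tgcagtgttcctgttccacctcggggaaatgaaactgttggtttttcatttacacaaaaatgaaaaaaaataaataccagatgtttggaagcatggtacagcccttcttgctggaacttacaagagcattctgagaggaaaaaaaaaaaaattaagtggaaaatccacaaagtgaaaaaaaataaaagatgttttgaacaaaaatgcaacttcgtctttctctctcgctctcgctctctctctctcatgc

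Both strands of the 250 bases before each listed start were searched for 7 letter patterns. The liver X receptor with its partner Rxra binds direct repeats of a half-site, written here as AGGTCA, then 4 bases of any kind, then AGGTCA again. Among the members' windows, those of Abca1 and Fabp7 held such a repeat with at most 3 mismatches, that of Fabp7 187 to 172 bases before its start and next to an AGGTCA at 171 to 166, both on the opposite strand. The Abca1 window held 1 such repeat with at most 3 mismatches in the half-sites, on the opposite strand, 67 to 52 bases before the start, with the half-sites in capitals here.
Abca1 direct repeat: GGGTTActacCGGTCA
That limit on mismatches was chosen after the Abca1 window had been read, and 18.5% of 32851 windows of the same length held a repeat within it. The Abca1 window also held GGGCGG at 2 places (in 32.7% of all windows), CACGTG once (6.02%) and TATAAA 29 to 24 bases before the start (12.4%). The Apod window held none of these, nor the exact repeat (0.0152%), AGGTCA alone (14.0%), which is part of that repeat, or GGGTCA (11.6%). Its bases were 36.4% G or C and those of the Abca1 window 61.6%, against a median of 52.4% over all windows. Of the 10 genes, 6 were in the promoter table. A match or its absence describes the letters of the B6 reference and says nothing of binding in these cells.

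Apoe (1432466_a_at) was above background on all 37 arrays, and its level differed between cultures of the same group more than that of 97.3% of all probe sets tested (residual SD 1.89). The 129 females read 7.17, 8.95, 12.65 and 13.19 with Cdca7l and 3.42, 9.47, 10.96 and 13.28 with vector. The 129 males read 10.61, 11.39, 11.44, 12.95 and 13.15 with Cdca7l and 10.26, 10.99, 11.70, 11.80 and 12.36 with vector. The lowest values, 3.42 and 7.17, were from the vector and Cdca7l arrays with the label 4(1), which also had the lowest astrocyte scores of all (−2.73 and −2.36) and the highest score of genes of dividing cells (3.60 on each). Over all 37 arrays, with group means removed, Apoe and the dividing-cell score gave r = −0.644 (rho = −0.335). That relation did not pass (permutation adjusted p = 0.0697).

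B6 cultures varied less in Apoe, with 9.78, 12.93, 12.98 and 13.29 in Cdca7l females, 10.17, 10.78, 12.09, 12.92 and 13.10 in vector females, 11.80, 11.86, 12.07, 12.64 and 13.14 in Cdca7l males and 11.85, 11.90, 12.10, 12.78 and 13.15 in vector males. The strains overlapped in every matched group. The difference was −1.40 ± 0.606 log2 units (129 minus B6, SE; 10.78 and 12.18) and did not pass (limma adjusted p = 0.0856, 95% interval −2.64 to −0.17). Single arrays moved it. Without the 129 female vector array 4(1) it was −0.91 (adjusted p = 0.16). It passed without the 129 female vector array 1(3) (−1.74, adjusted p = 0.0211), the 129 female Cdca7l array 1(3) (−1.63, adjusted p = 0.0396) or the B6 female Cdca7l array 6(3) (−1.61, adjusted p = 0.0458), and without both arrays that stood apart (−1.72, adjusted p = 0.0277).

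Clusterin was measured by 4 probe sets, whose levels stayed between 12.57 and 14.76 over all arrays. Of these, 3 carry the suffix _x that marks probes with possible matches to other transcripts. The main probe set, 1454849_x_at, ran from 13.29 to 14.73 in 129 and from 13.67 to 14.76 in B6, and differed by −0.27 ± 0.115 log2 units (129 minus B6, SE; adjusted p = 0.0772); the other 3 gave −0.20, −0.23 and −0.32, with adjusted p from 0.0985 to 0.168. Among vector males, where 7.17% of all probe sets did not overlap, the 129 arrays lay at 13.93, 14.22, 14.33, 14.34 and 14.38 and the B6 arrays at 14.45, 14.46, 14.49, 14.49 and 14.72, so the strains were apart there, as they were on 1437689_x_at but not on 1437458_x_at or 1418626_a_at. Without both arrays that stood apart, the difference of the main probe set was −0.31 and passed (adjusted p = 0.0384), as it did without the 129 female Cdca7l array 1(3) or 2(3), the 129 female vector array 1(3) or the B6 female vector array 2.1(1) (adjusted p from 0.0276 to 0.0467). Of the other 3, 1418626_a_at passed without both arrays that stood apart (−0.38, adjusted p = 0.0425).

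Lipoprotein lipase, which releases fatty acids from triglyceride-rich particles, also varied widely within groups (residual SD 1.46 on 1415904_at). The 129 females read 9.48, 10.35, 10.79 and 13.21 with Cdca7l and 8.05, 10.78, 12.12 and 12.62 with vector. The 129 males read 7.90, 7.93, 12.16, 12.62 and 12.74 with Cdca7l and 9.44, 10.01, 10.22, 12.32 and 12.54 with vector. Values in 129 thus spread over 5 log2 units, and the lowest were on the Cdca7l male arrays 3(1) and 5(1), those with the highest Apod of their group.

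In B6, Lpl read 11.22, 12.53, 12.71 and 12.79 in Cdca7l females, 10.53, 10.58, 12.24, 12.59 and 12.83 in vector females, 11.63, 11.80, 12.34, 12.45 and 12.63 in Cdca7l males and 11.67, 12, 12.02, 12.40 and 12.62 in vector males. The strains overlapped in every matched group. The difference was −1.24 ± 0.468 log2 units (129 minus B6, SE; limma adjusted p = 0.0501), just outside the threshold, and −1.90 ± 0.767 on the probe set 1431056_a_at (adjusted p = 0.0659). On 1415904_at it passed with a prior that follows the mean level (adjusted p = 0.045) and without both arrays that stood apart (−1.35, adjusted p = 0.0373). It passed in 12 of 37 fits that left out a single array, most clearly without the 129 female Cdca7l array 1(3) (−1.43, adjusted p = 0.0193).

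Abcg1 (1423570_at) differed in its pattern over strain and sex from the other transporter. In 129 females it read 5.72, 5.81, 7.67 and 8.71 with Cdca7l and 5.81, 5.81, 5.82 and 6.40 with vector, so 5 of the 8 arrays lay between 5.72 and 5.82. In 129 males it read 7.10, 7.54, 7.91, 8.50 and 8.97 with Cdca7l and 8.50, 8.97, 9.09, 9.22 and 9.65 with vector. The vector arrays of 129 males were all above those of 129 females, where 8.22% of probe sets were apart in either direction.

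In B6 females Abcg1 read 8.21, 8.60, 9.58 and 10.29 with Cdca7l and 7.33, 8.29, 8.30, 9.03 and 10.09 with vector, and in B6 males 4.57, 7.22, 7.74, 9.31 and 9.88 with Cdca7l and 5.54, 5.67, 7.82, 9.49 and 9.50 with vector. The sexes of B6 overlapped, and the vector arrays of 129 females were all below those of B6 females (7.01% of probe sets were apart there). The group means of 129 lay below those of B6 in females (6.98 and 9.17 with Cdca7l, 5.96 and 8.61 with vector) and above them in males (8 and 7.74 with Cdca7l, 9.09 and 7.61 with vector), so the strain difference had opposite signs in the sexes. The male value minus the female value of that difference was 3.29 ± 0.836 log2 units (SE; 95% interval 1.59 to 5.00), and did not pass after adjustment (unadjusted p = 0.000432, limma adjusted p = 0.118). In that comparison 0 of the 25579 probe sets passed (0% called), while 3917 had an unadjusted p under 0.05 and the median difference over all probe sets was 0.13. It passed for Abcg1 without the 129 female Cdca7l array 1(3) (3.58, adjusted p = 0.0276). Averaged over sex and plasmid, Abcg1 differed between strains by −0.78 ± 0.418 (adjusted p = 0.17).

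Nr1h3, which encodes the liver X receptor alpha, was close to background. On 1450444_a_at it ran from 1.99 to 5.60 in 129 (median 3.64) and from 3.08 to 6.90 in B6 (median 4.21), above background on 33 of 37 arrays. The highest values were 6.90 and 5.67 in B6 Cdca7l males, 5.67 in a B6 vector male culture and 5.60 in a 129 Cdca7l female culture. The strain difference of −0.58 ± 0.279 log2 units (SE) did not pass (limma adjusted p = 0.121), though it did without the 129 female Cdca7l array 1(3) (−0.72, adjusted p = 0.0389).

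On their main probe sets the fatty-acid binding proteins varied little, as did Clu. These probe sets averaged 13.43 (Fabp5), 13.68 (Fabp7) and 14.36 (Clu), near the highest value of the whole table, 15.26. Whether such high signals narrow the spread was not tested. The dimmest Clu probe set, 1418626_a_at, averaged 13.92 and had a residual SD of 0.437, against 0.339 on the main one. Fabp7 (1450779_at) ran from 13.06 to 14.11 in 129 and from 12.76 to 14.05 in B6, with a strain difference of −0.04 ± 0.113 log2 units (SE; 95% interval −0.27 to 0.19; limma adjusted p = 0.833). Fabp5 (1416021_a_at) ran from 12.84 to 14.07 in 129 and from 13.14 to 13.61 in B6, a difference of 0.16 ± 0.0802 (adjusted p = 0.146). Of all probe sets tested, 17.6% varied less between cultures of a group than Fabp7 and 6.87% less than Fabp5. The second Fabp5 probe set, 1416022_at, averaged 10.95 and varied more (residual SD 0.642, with 49.9% of probe sets below it, against 0.219 on the main one).

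Males and females were set against each other over both strains and plasmids. Of the 16 probe sets, 0 passed, where 0.321% of all probe sets did. The smallest adjusted p-values belonged to Fabp5, with a male minus female difference of −0.22 ± 0.0802 log2 units on 1416021_a_at (SE; 13.34 and 13.56; adjusted p = 0.171) and −0.51 ± 0.209 on 1416022_at (adjusted p = 0.204). In 129 vector cultures the sexes were apart on both Fabp5 probe sets, the main one at 12.84, 13.11, 13.37, 13.44 and 13.48 in males and 13.61, 13.65, 13.88 and 14.07 in females. The same 129 female vector arrays were all above those of B6 females, at 13.14, 13.29, 13.39, 13.54 and 13.57. In 129 Cdca7l, B6 Cdca7l and B6 vector cultures the sexes overlapped for every member, where 2.17%, 0.868% and 0.133% of all probe sets did not. Apoe gave 1.04 ± 0.606 (male minus female, SE; adjusted p = 0.357, 95% interval −0.20 to 2.28). Leaving out the array with the male pattern together with 1(3) brought no member past the threshold.

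The plasmid was the factor the study varied. No member was called in any comparison of Cdca7l with vector: 0 of 16 over all cultures, where 0.00782% of all probe sets passed, and 0 of 16 within each strain and sex, where 0% passed. Among the 16, 0 had an unadjusted p under 0.05 in any of these 5 comparisons, while 324 of all probe sets had one over all cultures and 142 to 538 within a strain and sex. Those counts are fewer than chance alone would give at 0.05 among 25579 probe sets, so the main fit may overstate the error of the plasmid difference. The smallest adjusted p of a member in limma was 0.999. The median difference of the 9 main probe sets, that with the highest mean of each gene, was 0.12 log2 units over all cultures against 0.02 over all probe sets. Cdca7l and vector arrays overlapped for every member in each strain and sex, where 0.399% (129 females), 0.586% (129 males), 0.317% (B6 females) and 0.113% (B6 males) of all probe sets did not.

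The intervals below are from the main fit, which counted arrays with the same label as separate cultures. Arrays of a label were positively correlated (0.409 in the fit with a random block on label), so these intervals may be too wide. Over all cultures the 95% interval of the Cdca7l minus vector difference was −0.15 to 0.18 log2 units for Fabp5, −0.17 to 0.29 for Fabp7, −0.12 to 0.35 for Clu and −0.12 to 0.59 for Abca1 (main probe sets). It was wider for Nr1h3 (−0.34 to 0.80), Abcg1 (−0.69 to 1.01), Lpl (−0.85 to 1.06), Apoe (−0.72 to 1.75) and Apod (−2.11 to 0.90). The Cdca7l difference did not pass between the strains or between the sexes for any member (adjusted p of 1 in limma; 0% of all probe sets passed in either).

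Arrays with the same clone label show the spread around these averages. Over the 15 labels found with both plasmids, Apoe was higher with Cdca7l in 8 and lower in 7, with a median of 0.06 log2 units and a range from −1.19 to 3.75. Apod was higher in 8 and lower in 7 (−2.14 to 2.40), Abca1 higher in 8 (−0.36 to 1.72), Lpl in 7 (−2.64 to 2.61), Clu in 7 (−0.38 to 0.78) and Fabp7 in 10 (−0.62 to 0.60). The largest shift of Apoe was that of the 129 female label 4(1), from 3.42 with vector to 7.17 with Cdca7l. In 129 the arrays are matched by label only and were not taken as pairs. Both extremes of Apoe, Abca1, Lpl, Clu and Fabp7 came from 129 labels, and in B6 Apoe ran from −0.39 to 0.36.

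**Figure D3:**
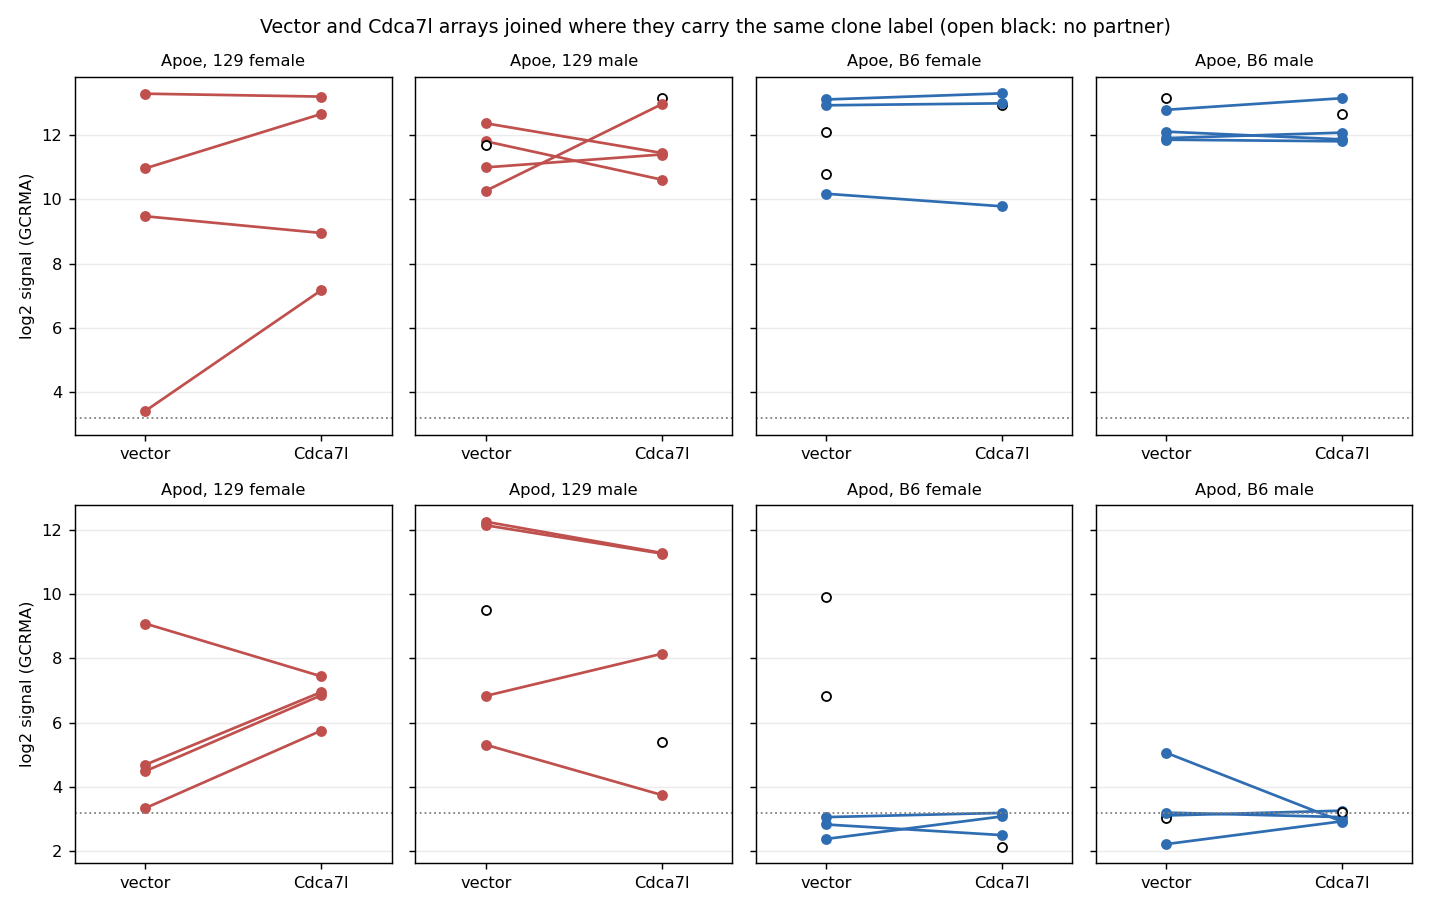
Apoe (top) and Apod (bottom) on vector and Cdca7l arrays, as log2 signal (vertical axes), in each strain and sex. Lines join arrays with the same clone label, open black points have no partner, and the dotted line is the background level. The lines run in both directions: Apoe is higher with Cdca7l for 8 of 15 labels and Apod for 8 of 15.

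Several members varied together between cultures of a group, as many other genes on the array did with them. Each main probe set was centred on its group means, and the 36 pairs of 9 genes were correlated over the 37 arrays, with a permutation test within groups and Benjamini-Hochberg adjustment over the 36; 15 pairs passed, 14 of them positive. Apoe and Clu gave the highest value, r = 0.897 (rho = 0.918; permutation, adjusted p = 0.00018 for each); r was 0.952 within 129, 0.724 within B6, and 0.874 without the 2 arrays farthest in Apoe. Clu ranked number 21 among 12120 genes by its r with Apoe, in the top 0.173%. Clu and Abca1 gave r = 0.77, Clu and Lpl 0.678, Apoe and Abca1 0.655 and Apoe and Lpl 0.623.

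These 4 genes and Nr1h3 were correlated in all 10 of their pairs. Nr1h3, though near background, gave r = 0.577 with Abca1, 0.51 with Lpl, 0.508 with Clu and 0.451 with Apoe. Such values were not rare on the array: 9.88% of genes had an r with Abca1 at least as high as that of Nr1h3, and 12.3% at least as high as that of Lpl. With Apoe, 15.8% of genes had an r at least as high as that of Nr1h3. For Abcg1, which also passed with Apoe (r = 0.355), the share was 21.4%. Abca1 and Abcg1, the transporters that act in sequence, gave r = 0.199 (permutation adjusted p = 0.398; rho = 0.289, adjusted p = 0.211); r was 0.726 within 129 and −0.135 within B6, and the difference between the strains was not tested.

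Apod stood outside this group, with r = 0.0105 with Apoe and −0.0913 with Clu. Its called relation was the negative one with Fabp5 (r = −0.551, rho = −0.563; permutation adjusted p = 0.0127 and 0.00972), which did not pass without the 2 arrays farthest in Apod (r = −0.47, adjusted p = 0.0724). Of the 15 pairs called, 12 passed without the 2 farthest arrays, and 14 with 1 value per clone label, over 22 labels. Without both arrays that stood apart 17 pairs passed, among them Apoe and Fabp7 (r = 0.483) and Clu and Abcg1 (r = 0.381), which had not passed with them. These values are over arrays that share a deposited normalization, and arrays with the same label are not independent.

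**Figure D4:**
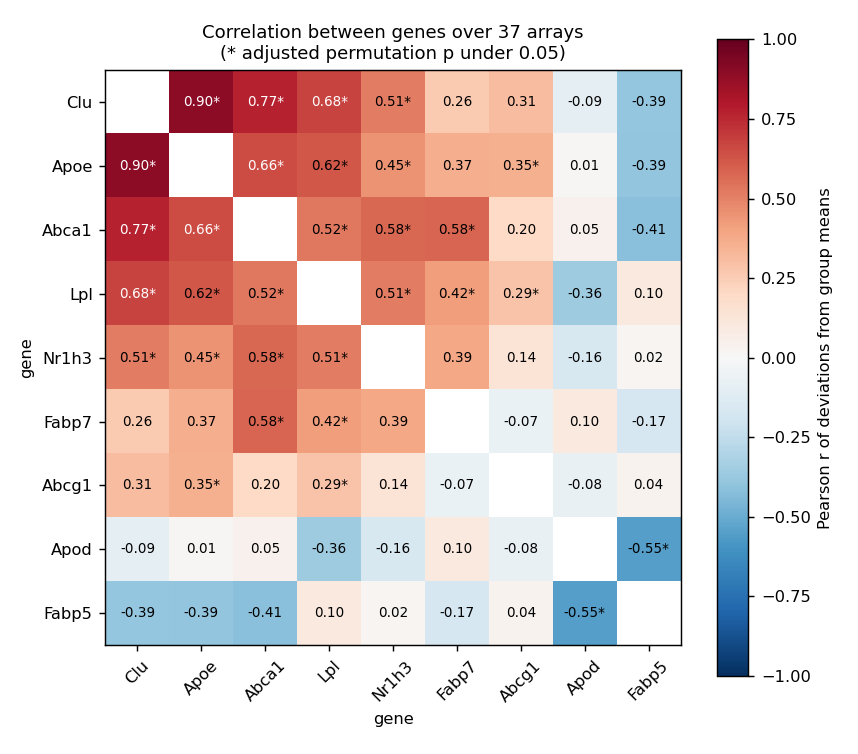
Pearson r between 9 genes over 37 arrays, after removing group means (colour scale from −1 to 1; the value is printed in each cell and a star marks a permutation adjusted p under 0.05). Clu, Apoe, Abca1, Lpl and Nr1h3 form a block of positive values, from 0.451 to 0.897, and Apod and Fabp5 are at −0.551.

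The same deviations were set against the scores of the 9 cell-type lists, which is 81 relations. The astrocyte score gave r = 0.864 with Apoe (rho = 0.902; permutation adjusted p = 9e-05), 0.878 with Clu (rho = 0.9), 0.79 with Abca1 (rho = 0.724) and 0.75 with Lpl (rho = 0.784). These held with 1 value per clone label (adjusted p from 0.000405 to 0.0054). They were not confined to the astrocyte list: Apoe gave r = 0.685 with the ependymal and 0.62 with the oligodendrocyte score, Clu 0.702 and 0.587 in the same order, and these 4 also passed with 1 value per label. The oligodendrocyte score rests on the 5 genes tested of its 12, Olig1, Olig2, Pdgfra, Cnp and Mbp, without most of the list's other markers. Abca1 gave 0.73 with the progenitor score. Apod gave r = 0.791 with the fibroblast and meningeal score (rho = 0.689; permutation adjusted p = 0.000567; 0.765 without the 2 farthest arrays), 0.658 with the endothelial score (rho = 0.583; adjusted p = 0.0158, and 0.0628 with 1 value per label) and −0.105 with the astrocyte score (adjusted p = 0.649).

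Lpl ran against the fibroblast and meningeal score (r = −0.629, rho = −0.525; permutation adjusted p = 0.0312, and 0.0628 with 1 value per label) and the endothelial score (r = −0.716, rho = −0.599; permutation adjusted p = 0.0169), though the endothelial markers Pecam1, Cdh5, Cldn5 and Vwf were at background throughout and 2 of the list's 9 genes were tested. Fabp7 went with the list of neural progenitors and radial glia, which does not hold it (r = 0.727, rho = 0.777; permutation adjusted p = 9e-05, and 0.0081 with 1 value per label). It also passed with the astrocyte score (r = 0.556, rho = 0.433; permutation adjusted p = 0.00567) and the microglia score (r = 0.417, rho = 0.513; adjusted p = 0.0159). Neither of these passed with 1 value per label (adjusted p = 0.0664 and 0.069). Slc1a3 is on both the progenitor and the astrocyte list. Fabp5 went with the list of dividing cells (r = 0.583, rho = 0.525; permutation adjusted p = 0.00929), which did not pass with 1 value per clone label (adjusted p = 0.0977). Apoe and the microglia list gave r = −0.143 (rho = −0.31; permutation adjusted p = 0.496). Nr1h3 passed with the astrocyte score (r = 0.552; permutation adjusted p = 0.00442) and the progenitor score (r = 0.593; adjusted p = 0.0121), also with 1 value per label. Its negative relations with the fibroblast (r = −0.352; adjusted p = 0.0344) and endothelial scores (r = −0.402; adjusted p = 0.0279) did not pass with 1 value per label. In all 26 of the 81 relations passed, and 15 of these with 1 value per label.

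**Figure D5:**
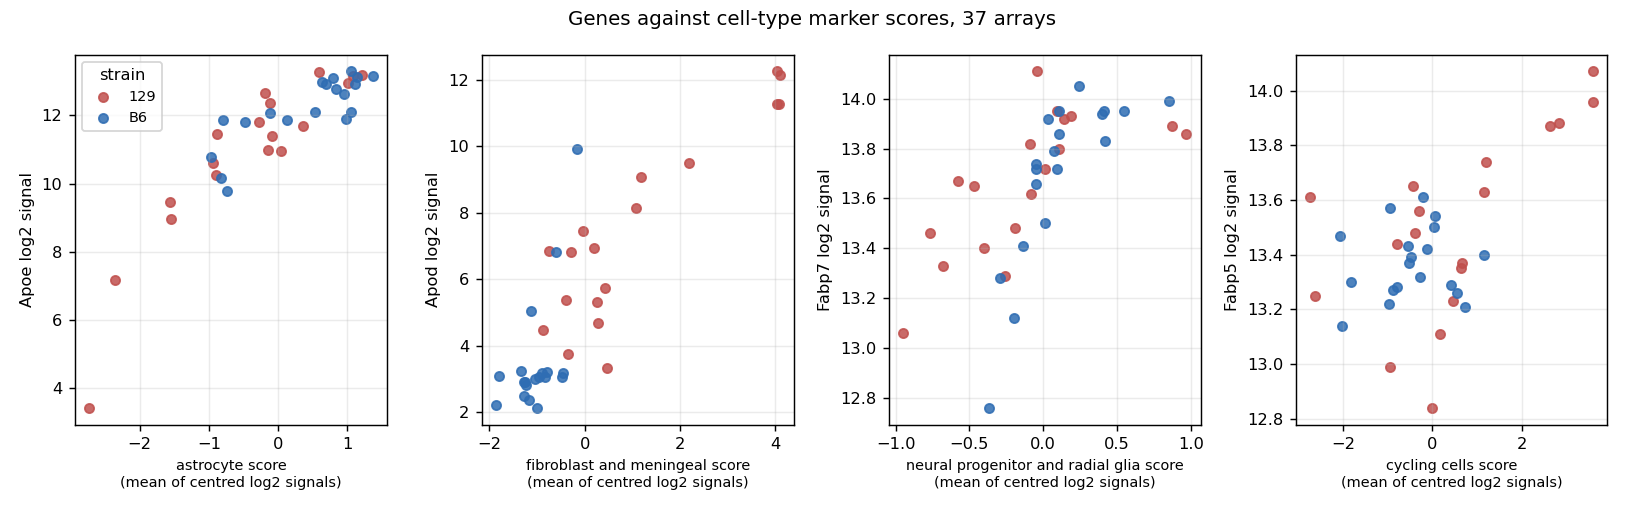
Log2 signal of Apoe, Apod, Fabp7 and Fabp5 (vertical axes) against the score of a cell-type list (horizontal axes, mean of the list's log2 signals after centring each gene over 37 arrays); each point is an array, red for 129 and blue for B6. Apoe is lowest, at 3.42, on the array with the lowest astrocyte score of −2.73, and the 4 arrays with fibroblast scores of 4.03 to 4.09 have Apod at 11.26 to 12.25.

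The genes most like each member in these deviations were ranked over 12121 named genes. For Apoe they were Atp1b2, a sodium pump subunit of astrocytes (r = 0.954), the glutamate transporter Slc1a2 (0.938), itself on the astrocyte list, and Gm2a, a lysosomal lipid-transfer protein (0.935). For Clu they were Pltp, the phospholipid transfer protein (0.955), Plcd4 (0.95) and Arhgef4 (0.939). For Abca1 they were the integrin Itgb8 (0.945), Glis3 (0.932) and Acot11, an acyl-CoA thioesterase (0.906). For Lpl they were Gng3 (0.911), Slc13a3 (0.91) and the glycogen phosphorylase Pygb (0.896).

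For Apod they were Dcn (decorin, 0.854), itself on the fibroblast list, Irgm1 (0.797) and the chemokine Ccl8 (0.761). For Fabp7 they were Arl2bp (0.909), the RNA-binding protein of neural progenitors Msi1 (0.858), itself on the progenitor list, and Mamdc2 (0.858). The values were lower for Nr1h3 (Asphd2, 0.842), Abcg1 (Cutal, 0.809) and Fabp5 (Dkc1, the pseudouridine synthase dyskerin, 0.697). The highest r with Fabp5 was thus below the highest r with each of the other members.

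Other genes of the pathway were read from 9 lists, with 1 probe set per gene, for which 10.4% of all named genes were called higher and 16.5% lower in 129. Of 15 other ABC lipid transporters tested, 2 were higher and 6 lower; Abca8a was lower by 2.64 ± 0.526 log2 units (SE; limma adjusted p = 0.000493) and Abca8b by 2.02 ± 0.355, while the multidrug transporter Abcb1b was higher by 1.83 ± 0.287. Of 18 receptors, 2 were higher and 4 lower: the sorting receptor Sorl1 was at −1.20 ± 0.299, Lrp4 at −1.09 ± 0.255, Scarb2 at −0.64 ± 0.149 and Mylip, an LXR-induced ligase that degrades the LDL receptor, at 2.09 ± 0.41. Of 15 lipases and remodelling genes, 1 was higher and 5 lower, with endothelial lipase (Lipg) at −2.19 ± 0.605 and the Lpl inhibitor Angptl4 at 0.93 ± 0.297. Angptl4 averaged 3.29 over all arrays, close to background.

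Of 11 other described LXR targets, 1 was higher (Mylip) and 5 lower, among them the desaturase Scd2 at −0.34 ± 0.0964 log2 units (SE; limma adjusted p = 0.0104), Tmem135 and Slc2a4. Among 13 nuclear receptors and cofactors, Rxra, the partner of the liver X receptors, was at −1.12 ± 0.351 (adjusted p = 0.0198), Ncoa1 at −0.52 ± 0.178 and Pparg at 1.18 ± 0.391, the calls of that list. Of 20 sterol-trafficking genes, 4 were higher and 2 lower, with cholesterol 25-hydroxylase (Ch25h) at 2.44 ± 0.537 and Osbpl1a at −0.90 ± 0.14. Of 11 lipid-droplet genes, 1 was higher, the droplet coat protein Plin2 at 1.11 ± 0.184, and 3 lower. Mean levels over all arrays were close to background or below it for Ch25h (3.33), Slc2a4 (3.03) and Pparg (2.84).

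Fatty-acid carriers and uptake genes were called in both directions, 4 higher and 4 lower of 16, with Slc27a4 at 0.80 ± 0.211 log2 units (SE) and Acsl6 at −1.45 ± 0.344 (limma adjusted p = 0.00616 and 0.00272). Of 5 other apolipoprotein-named genes tested, 0 were higher and 2 lower, Apoa2 at −2.04 ± 0.484 and the mRNA editing enzyme Apobec1 at −0.65 ± 0.241. Apoa2 averaged 3.4 over all arrays, close to background. Between sexes, where 0.248% of named genes were called higher and 0.0495% lower in males, 0 genes of the 9 lists were called, and 0 were called between Cdca7l and vector.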

How the data were processed

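RNA was amplified from a small amount of total RNA and hybridised to 1-colour arrays, per the labels' protocols. The deposited table holds log2 expression values; the authors made them with GCRMA and Partek 6.5, per the submitters' processing notes, and the sources used here do not say if all arrays entered 1 normalization. Values were used as deposited. Probe sets were named from the platform annotation (34958 with 1 symbol, 932 with several, 9211 with none); probe sequences were not used here, so probe sets were not screened for variants between the strains, which can lower the signal of a strain. A probe set was tested if above 3.189, the table median, on 4 or more arrays, and 64 control probe sets were dropped.

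A linear model with 8 group means over 37 arrays (29 residual degrees of freedom) was fitted in limma 3.58.1 under R 4.3.3, with 10 comparisons, Benjamini-Hochberg adjustment over 25579 probe sets, and a threshold of 0.05. It was tested on simulated data. Correlations used deviations from group means, 100000 permutations within groups, and numpy 2.4.6. The design assumed 45 pairs of members; 9 genes gave 36. Log2 values have no depth in counts, and precision is set by how many arrays there are and by the spread between them. Alternatives were another prior, no filter, raised low values, quantile normalization, replicate blocks, the compared groups alone, and arrays left out.

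Arrays with the same clone label were read as pairs in B6, where they deviated together (r from 0.432 to 0.775 over 3 female and 0.376 to 0.572 over 4 male pairs). That reading comes from these data, since the sources used here do not say what a label means.

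Members, lists and tests were chosen with earlier results of these data known. Named genes were all members, called genes of the lists (up to 4 a list by smallest p), and the 3 genes most correlated with a member. A gene on 2 lists counts in both.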

Additional observations from a re-analysis of the deposited data

Results flagged for a closer look

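In 9 of 72 sets of 4 or 5 arrays (9 genes in 8 groups, main probe sets), the highest or the lowest array lay far from the rest by Dixon's test; chance marks about 1 in 20. Apoe and Lpl were low on the same array, B6 female Cdca7l 6(3): Apoe read 9.78 there and 12.93 to 13.29 on the other 3, and Lpl 11.22 against 12.53 to 12.79. The vector array with that label had the lowest Apoe (10.17) and Lpl (10.53) of its group too. Abca1 and Fabp7 were both low on the B6 male vector array 4(3), at 12.41 against 13.25 to 13.49 and at 12.76 against 13.66 to 13.95. Abca1 was also low on the 129 male vector array 3(3), at 11.58 against 12.74 to 13.06. Fabp7 read 13.40 on the 129 male Cdca7l array 3(1) against 13.82 to 13.92.

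On the high side, Clu read 14.72 on the B6 male vector array 2(4) against 14.45 to 14.49, Abcg1 read 6.40 on the 129 female vector array 2(3) against 5.81 to 5.82, and Nr1h3 read 4.14 on the 129 male vector array 5(2) against 3.54 to 3.70. For the last 3 the distance to the next array was 0.23 to 0.58 log2 units.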

How the results depend on the processing

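Of 160 differences of member probe sets, 149 passed in no setting, 4 passed as reported and in every setting tried, and 7 passed in some alternatives alone; 71 that did not pass changed sign in at least 1 setting. With a random replicate block on clone label (correlation within a label 0.409), the counts over all probe sets were 4249 for strain (6456 without it), 19 for sex (82), and 1, 1 and 4 for Cdca7l in 129 females, B6 females and B6 males (0 each), and the same 4 member probe sets passed (Apod adjusted p = 0.00229). The fixed replicate block gave 1 for Cdca7l over all cultures (2 without it) and changed no call of a member; in 129, r between arrays of a label ran from 0.061 to 0.716 in 4 female and −0.0887 to 0.623 in 4 male pairs, so labels were not taken as pairs there. A trend and robust prior gave 3 for the strain difference between sexes (0), and the compared groups alone 2 for Cdca7l in 129 males (0). Without both arrays that stood apart, 8 member probe sets passed between strains (4), 260 probe sets between sexes (82), and 1 each for Cdca7l in 129 males, B6 females and B6 males.

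Leaving out each array in turn gave 4 to 10 member calls between strains, with 10 without the 129 female Cdca7l array 1(3), and 0 to 1 for the strain difference between sexes; over all probe sets it gave 0 to 411 for that difference and 35 to 947 for sex, both highest without that same array and the count for sex lowest without the 129 female Cdca7l array 4(1), and for Cdca7l 0 to 1 in 129 females, 0 to 1 in 129 males, 0 to 2 in B6 females and 0 to 3 in B6 males. Quantile normalization moved the sex calls from 69 higher and 13 lower to 43 and 22, and the median strain difference between sexes from 0.13 to −0.01. Signals near background, as for Apod in B6, Nr1h3 and several of the named pathway genes, have no reliable size. The causes were not tested.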

Other observations

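The level of a member on a vector array was compared with that on the Cdca7l array of the same label, over 15 labels, after centring within strain, sex and plasmid. Pearson r was 0.806 for Apod (rho = 0.75; permutation adjusted p over 9 genes 0.0373 and 0.131; 0.784 without the 2 farthest labels), 0.811 for Apoe (rho = 0.668; adjusted p = 0.0744 and 0.131; 0.592 without the 2 farthest) and 0.692 for Abcg1 (rho = 0.657; adjusted p = 0.0851 and 0.131; 0.411 without them). It was 0.379 for Fabp5 and 0.429 for Abca1, which did not pass. By rho none of the 9 passed.

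The B6 female vector array 5.1(1), with the male pattern of Xist, also had a microglia and macrophage score of 3.69, the highest in B6, beside its Apod value of 9.91.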
